A study of Mus musculus with 4 samples.

Results

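Metallothioneins, ferritin and the genes that carry iron into and out of cells are described here across 4 RNA libraries of adult mouse neural stem cells. The 10 genes were the metallothioneins Mt1, Mt2 and Mt3, the ferritin subunits Fth1 and Ftl1, the uptake genes Trf, Tfrc and Slc11a2, and the export genes Slc40a1 and Cp. They were taken by symbol from 32564 genes, and the set was selected on measured levels, since Fth1 and Mt1 were known to be among the most abundant transcripts of these libraries. Levels of the 10 genes and ratios between them are therefore given as descriptions, without a test.

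The 4 libraries form 1 group, so there is no control group. The labels describe neural stem cells sorted by flow cytometry as Gfap, Prom1 and Egfr positive, and as the activated, Egfr-bearing subtype. They came from gfap:GFP transgenic mice, 3 months old, on a mixed CD1/C57BL/6 background, with no treatment. The series' design text instead speaks of quiescent cells collected after aCSF or an antagomer against miR204. No sample carries either treatment in its label, and the labels were followed. The labels do not tie libraries to separate animals, so each SD below measures the spread between 4 samples, which may be technical. If the design text applied, that spread could also hold a difference between treatments.

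Metallothioneins are small, cysteine-rich proteins that bind zinc and copper; Mt3 is the form best known from brain. Ferritin is a hollow shell of heavy and light chains that stores iron, and its heavy chain, the product of Fth1, oxidises ferrous iron on entry. Transferrin, encoded by Trf, carries iron to the receptor encoded by Tfrc, and the transporter encoded by Slc11a2 moves ferrous iron out of the endosome. Ferroportin, the product of Slc40a1, exports iron, and the ferroxidase ceruloplasmin, from Cp, oxidises the iron that leaves. Iron regulatory proteins bind a stem-loop in some of these mRNAs, the iron-responsive element. Bound before the coding sequence it blocks translation, and bound after it, as in Tfrc, it protects the mRNA. In brain, oligodendrocytes are a well-known source of transferrin RNA.

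The iron-responsive elements of these genes are shown because they mark which of the 10 mRNAs carry the letters that iron regulatory proteins are known to bind, and on which side of the coding sequence. The search asked for a C, 5 bases, a loop reading CAGTGN, and 5 bases that pair with the first 5 (G with T allowed), in GENCODE M21 transcripts (GRCm38, the assembly named mm10). Each sequence runs 5′ to 3′ over 30 bases with the loop in capitals. The first 3 lie in the 5′ UTR, of Fth1 at chr19:9982732-9982761 on the plus strand, of Ftl1 at chr7:45459778-45459807 on the minus strand and of Slc40a1 at chr1:45925464-45925493 on the minus strand. The next 4 lie in the 3′ UTR of Tfrc on the plus strand, from chr16:32631219-32631248 to chr16:32631710-32631739. Their letters A to D only give the order of the matches. An element with another loop could not be found by this search.
Fth1-201: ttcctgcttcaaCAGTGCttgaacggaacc
Ftl1-201: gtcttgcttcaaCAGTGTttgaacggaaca
Slc40a1-201: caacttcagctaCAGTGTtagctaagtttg
Tfrc-201 site A: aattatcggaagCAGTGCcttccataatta
Tfrc-201 site B: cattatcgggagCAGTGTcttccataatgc
Tfrc-201 site C: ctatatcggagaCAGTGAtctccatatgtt
Tfrc-201 site D: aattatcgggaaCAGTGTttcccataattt
The same letters and pairing were found in 490 of 51766 protein-coding transcripts (0.947%). A second search, added because Slc11a2 had no match, allowed 1 unpaired base on the 3′ side of the stem and matched 2.10% of these transcripts. It found a single place in the 10 genes, the 3′ UTR of Slc11a2-205 (chr15:100395152-100395181, minus strand).
Slc11a2-205: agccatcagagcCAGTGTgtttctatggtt
Slc11a2-201, which ends in another last exon, held no match in either search, nor did any transcript of Mt1, Mt2, Mt3, Trf or Cp. A match describes the letters of the annotated transcript and not binding in these cells.

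For the metallothioneins the letters of interest are those of the metal response element, TGCACNC or TGCGCNC on either strand, which the zinc-sensing factor Mtf1 is known to bind. RefSeq promoter windows (GRCm38.p6, 250 bases before to 50 after the start) were matched for 7 of the 10 genes. Within these windows Mt1 held 3 such motifs, Mt2 held 4 and Mt3 held 1. The start is the annotated one, and motifs beyond the window were not counted. Of 32851 windows 25.7% held at least 1 motif, 7.11% at least 2, 1.97% at least 3 and 0.518% at least 4. The windows below show, in capitals, those of Mt1 and Mt3 and the 2 of Mt2 nearest its start, all on the plus strand. The Mt2 motifs are read on the opposite strand, so they appear as reverse complements. In order the windows lie at chr8:94179055-94179084, chr8:94179089-94179118, chr8:94172557-94172586, chr8:94172611-94172640 and chr8:94152623-94152652.
Mt1 before the start: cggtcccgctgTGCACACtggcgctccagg
Mt1 after the start: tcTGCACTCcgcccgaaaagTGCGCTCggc
Mt2 before the start: ggggggagggcGTGTGCAggctctgtccca
Mt2 after the start: gaattcgggtcGTGCGCAggcccaggggcg
Mt3 after the start: cgggacagcagTGCACACacacggagagca
The windows of Fth1, Ftl1 and Cp held none, and 1 of 2 windows of Tfrc held 2.

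Libraries held 16978938 to 23727664 estimated counts, and 13.5 to 18.4% of TPM (a level relative to a fixed library total, corrected for transcript length) was mitochondrial. All 10 stem cell and sort markers had counts in every library, with summed levels of 2405 to 3265 TPM. Markers of other cells were present too. Oligodendrocyte markers summed to 2515 to 4343 TPM (8 of 8 genes above 0 in each library), microglia to 193 to 594 TPM (10 of 10), ependymal cells to 601 to 1211 TPM (8 of 8) and mature neurons to 1066 to 1312 TPM (8 of 8). Red blood cell genes summed to 59.0 to 2339 TPM (4 of 4). Endothelial and mural markers summed to 24.8 to 43.4 TPM, with 5, 6, 4 and 4 of 8 genes above 0 in libraries 1 to 4. Pdgfrb, at 19.8 to 38.8 TPM, made up most of that sum, and Cdh5 and Kcnj8 were at 0 in all 4 libraries. Library 1 stood apart: it had the lowest level of 6 of 8 oligodendrocyte, 9 of 10 microglia, 7 of 8 ependymal and 4 of 4 red blood cell genes. For Trf and Slc40a1, both far lower in library 1, the mean is also given without it.

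Together the 10 genes took 1.33 to 1.51% of all TPM. Ferritin made up most of this, with 0.771 to 0.886% for its 2 subunits, followed by the 3 metallothioneins with 0.516 to 0.624%. In order of mean level the genes ran Fth1, Mt1, Ftl1, Mt3, Mt2, Trf, Tfrc, Slc11a2, Slc40a1 and Cp. Ranges over the 4 libraries overlapped for 2 pairs of neighbours in this order, Mt1 with Ftl1 (Mt1 higher in 3 of 4 libraries) and Slc40a1 with Cp (higher in 2 of 4).

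**Figure D1:**
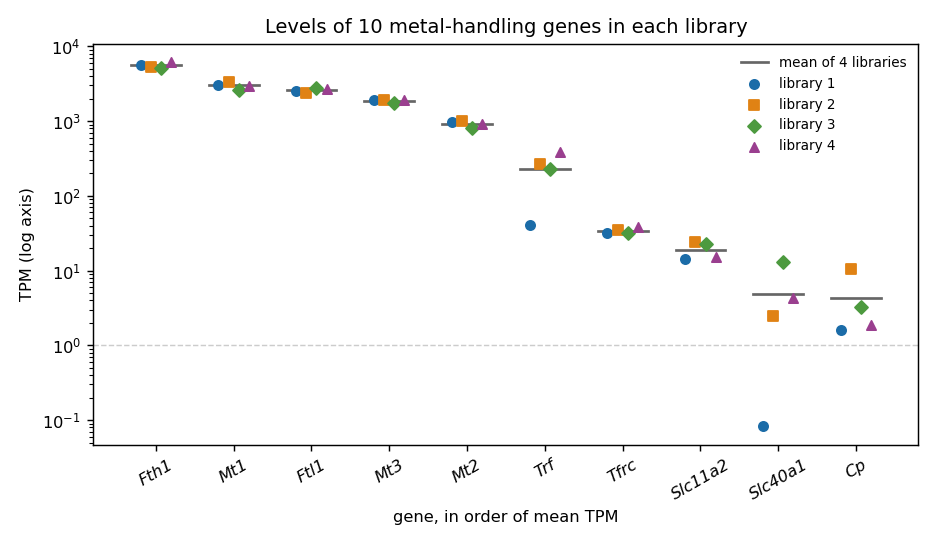
Level of each of the 10 genes in TPM (log axis) in libraries 1 to 4 (coloured points), with the mean as a grey bar and 1 TPM as a dashed line. Ferritin and metallothionein points lie close together between 799 and 6136 TPM, while Trf in library 1 (41.1 TPM) and Slc40a1 in library 1 (0.082 TPM) lie far below their other points.

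Mt1 (chromosome 8, 94179082 to 94180327, plus strand) stood at 3077, 3302, 2609 and 2986 TPM in libraries 1 to 4, a mean of 2993 ± 289 TPM (SD, n = 4). It ranked 9th among 21819 nuclear protein-coding genes. Library 3 was its lowest, and its highest and lowest libraries differed 1.27-fold.

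Mt2, the neighbour of Mt1 and like it widely expressed, stood at 985, 1005, 799 and 916 TPM (926 ± 92.9 TPM). Library 3 was again lowest. Here and below, folds and log2 ratios between genes were taken of TPM + 1. Mt1 exceeded Mt2 by 3.12-, 3.28-, 3.26- and 3.26-fold in libraries 1 to 4, so that this ratio varied less than either gene (SD of 0.03 on the log2 scale, against 0.14 for Mt1 and 0.15 for Mt2). The fold depends on how transcripts are counted, since 26.7 to 31.1% of Mt2 TPM lay on the short transcript Mt2-202 and the rest on Mt2-201. With only the most abundant transcript of each gene, the mean log2 ratio was 2.16 rather than 1.69.

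Mt3 stood at 1906, 1928, 1754 and 1935 TPM (1881 ± 85.6 TPM) and ranked 18th. It had the smallest spread of the 10 genes, with an SD of 0.07 on the log2(TPM + 1) scale, and library 3 was its lowest as well. Mt3 lay below Mt1 and above Mt2 in all 4 libraries: Mt1 over Mt3 was 1.49- to 1.71-fold, and Mt2 over Mt3 was 0.456- to 0.522-fold. Mt3-201 held 94.1 to 97.9% of Mt3 TPM and Mt3-202 held 1.54 to 4.02%. Mt1-201 held 97.9 to 99.6% of Mt1 TPM and Mt1-202 at most 1.33%. Mt4, the remaining gene of this cluster of 43131 bases and known from squamous epithelia, had no count in any library. On the genome Mt2 ends 5513 bases before Mt1 starts.

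Metallothionein genes are known to respond to glucocorticoids and to cell stress. Summed immediate early and stress genes ran 5534, 7209, 9772 and 4536 TPM in libraries 1 to 4, and glucocorticoid-responsive genes ran 394, 434, 644 and 536 TPM. Both sums were highest in library 3, the library with the lowest Mt1, Mt2 and Mt3. Their part in these levels was not tested.

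Fth1 (chromosome 19, 9980598 to 9985098, plus strand) was the highest of the 10 genes, with 5684, 5305, 5064 and 6136 TPM (5547 ± 468 TPM; rank 6). Library 4 was highest and library 3 lowest. The index held 1 transcript of Fth1, Fth1-201, which took between 39083 and 70064 estimated counts.

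Ftl1, the light chain, stood at 2535, 2407, 2744 and 2720 TPM (2602 ± 160 TPM; rank 12). Its order of libraries differed from that of Fth1: library 3 was highest for Ftl1 and lowest for Fth1. Fth1 exceeded Ftl1 by 2.24-, 2.20-, 1.85- and 2.25-fold, with library 3 below the other libraries. Ftl1-201 held 88.4 to 96.2% of Ftl1 TPM, and Ftl1-202, in which the same element lies, held 0.61 to 1.99%. Most of the rest lay on transcripts with a retained intron, of which Ftl1-206 held 1.55 to 4.81%. Ferritin pseudogenes, which could take reads from the parent genes, were sought by symbol only, so any annotated under other names were not counted. Those found had mean levels of 0.05 to 0.80 TPM. Adding them moved neither subunit by more than its spread.

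Of the 10 genes 8 reached a mean of 10 TPM. For 6 of these, the 3 metallothioneins, both ferritin subunits and Tfrc, the SD of log2(TPM + 1) was 0.07 to 0.15. This was below the median of 0.25 over 9433 genes of at least 10 TPM. The remaining 2, Trf and Slc11a2, were above that median, at 1.42 and 0.37. The 9433 genes were not matched for level, whereas ferritin and metallothionein values lay between 799 and 6136 TPM.

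**Figure D2:**
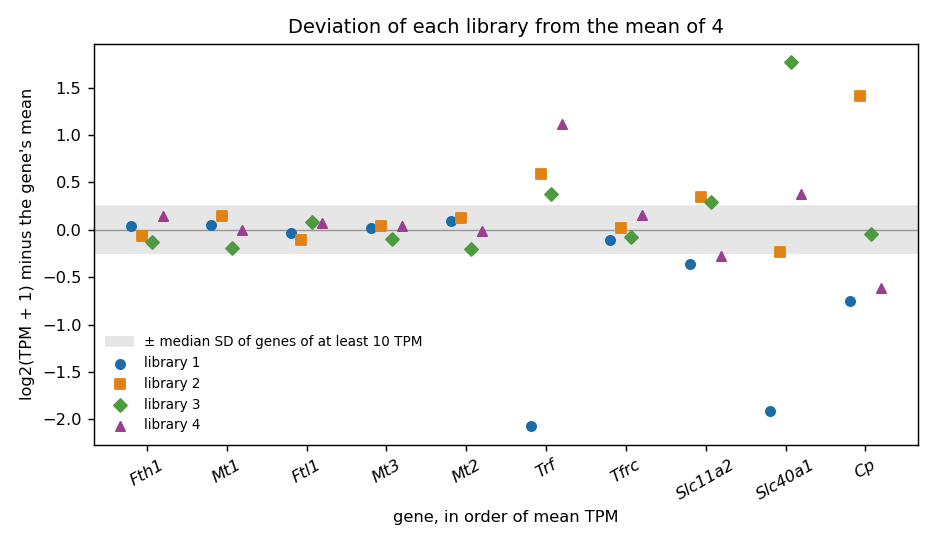
Deviation of log2(TPM + 1) of each library from the gene's mean over 4 libraries; the grey band spans the median SD (0.25) of genes of at least 10 TPM on either side of 0. Points of Fth1, Mt1, Ftl1, Mt3, Mt2 and Tfrc all fall inside the band, whereas Trf and Slc40a1 show library 1 well below it and Cp shows library 2 well above it.

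Trf (chromosome 9, 103204001 to 103230444, minus strand) stood at 41.1, 265, 230 and 382 TPM (229 ± 141 TPM). Library 1 was far below the rest, and without it the mean was 292 ± 79.7 TPM (n = 3). Of the genes of at least 10 TPM, 99.8% had a smaller SD than Trf. The reads behind these values were 1191 estimated counts in library 1 and 5436 to 12473 in the other libraries.

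Some oligodendrocyte markers moved with Trf and others did not. The myelin gene Mog had 9.73, 76.4, 71.7 and 85.3 TPM in libraries 1 to 4, and Trf was 422, 347, 321 and 448% of it. Mal, another myelin gene, had 13.8, 86.0, 78.1 and 70.0 TPM, and Trf was 297, 308, 294 and 545% of it. Markers of the same list that did not follow were the myelin genes Mbp and Mobp: Mbp had 1774, 1608, 1471 and 1969 TPM, and Mobp had 341, 335, 312 and 405 TPM. Cnp and Mag were lowest in library 1 but by other amounts than Trf: the mean of libraries 2 to 4 over library 1 was 2.71-fold for Cnp, 12.4-fold for Mag and 7.11-fold for Trf. Summed over all 8 markers, library 1 had 2515 TPM and the others 3316 to 4343 TPM, and Trf was 1.63% of that sum in library 1 against 6.93 to 8.79% elsewhere. The part of oligodendrocyte RNA in the Trf level was not tested; in bulk samples fewer cells of a type and less RNA per cell cannot be told apart.

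**Figure D3:**
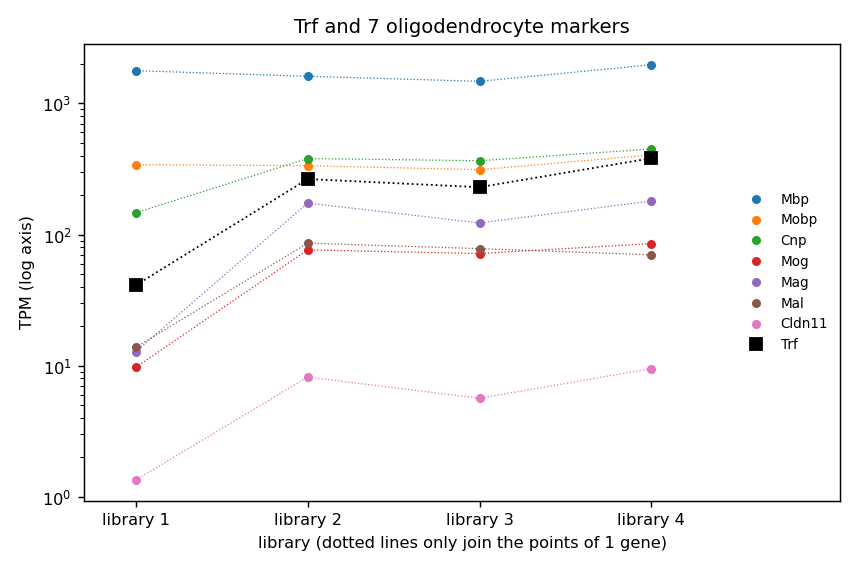
TPM (log axis) of Trf (black squares) and 7 oligodendrocyte markers (coloured circles) in libraries 1 to 4; dotted lines only join the points of 1 gene. Trf and 5 of these markers have their lowest point in library 1, while Mbp (1774 TPM there) and Mobp (341 TPM there) are nearly level.

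By root mean square difference of centred log2(TPM + 1) over the 4 libraries, the 3 genes nearest to Trf among 9432 were Fhad1 (0.12), the lipocalin gene Apod (0.15) and Mog (0.18). Apod had 15.4, 78.3, 70.7 and 128 TPM, lowest in library 1 and highest in library 4 as Trf was. Fhad1 had 2.01, 18.3, 14.1 and 21.5 TPM, with its lowest and highest values in the same libraries. Of these 3 genes Mog alone is on the oligodendrocyte marker list used here. The long coding transcripts carried most of Trf: Trf-201 held 47.5 to 56.9% and Trf-203 held 22.3 to 38.7%. Trf-209, a short form with a retained intron, held 7.42 to 21.6% on at most 184 estimated counts. Both Trf-201 (22.1 TPM) and Trf-203 (9.16 TPM) were lowest in library 1, against 130 to 181 TPM and 80.1 to 148 TPM in the other libraries.

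Tfrc, the receptor, stood at 31.6, 34.5, 32.2 and 38.1 TPM (34.1 ± 2.97 TPM), with an SD of 0.12 on the log2 scale. It did not share the drop of its ligand's RNA in library 1: Trf over Tfrc was 1.29-fold there and 6.94- to 9.79-fold in the other libraries. Red blood cell precursors are known for high Tfrc, and summed haemoglobin genes ran 59.0, 639, 448 and 2339 TPM. Both put the libraries in the order 1, 3, 2, 4 from low to high, with a 39.6-fold range for the haemoglobin sum and a 1.21-fold range for Tfrc. The main form, Tfrc-201, did not keep this order: it was lowest in library 2, at 20.8 TPM, and highest in library 4, at 25.4 TPM. The short form Tfrc-203 had 11.6 TPM in library 2 on 9 estimated counts, against 4.78 TPM in library 1 and 3.49 TPM in library 3. The shared order of the gene therefore rests partly on few reads. The part of red blood cell RNA in the Tfrc level was not tested. Fth1 exceeded Tfrc 149- to 175-fold in every library, by ratio of TPM + 1. Tfrc-201 held 60.2 to 76.2% of Tfrc TPM. The 4 elements found in it also lie in Tfrc-204, a form with a retained intron that held 2.54% in library 3 and none elsewhere. Another 10.8 to 33.5% lay on Tfrc-203, a fragment of 166 bases supported by 2 to 12.3 estimated counts, so the gene's TPM rests partly on few reads.

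Slc11a2 stood at 14.3, 23.98, 23.0 and 15.2 TPM (19.1 ± 5.09 TPM). Libraries 2 and 3 were high and libraries 1 and 4 low, an order shared, among the other 9 genes, with Cp alone. Its main coding forms varied by unequal amounts. Slc11a2-205, which carries the element, had 5.95, 6.41, 5.63 and 4.78 TPM, a 1.34-fold range. Slc11a2-201, without it, had 2.19, 11.7, 12.02 and 5.64 TPM, a 5.50-fold range. In library 1 the form with the element was the higher one, and in the other libraries the form without it was. Estimated counts were 263 to 396 for Slc11a2-205 and 97.8 to 488 for Slc11a2-201. Since kallisto divides shared reads between forms by estimate, these values carry an error that the SD does not show.

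Further short forms of Slc11a2 held large shares on few reads: Slc11a2-203 held 43.0, 22.7 and 23.2% in libraries 1 to 3 on at most 53.7 estimated counts, and Slc11a2-204 held 31.2% in library 4 on 18.6. The genes nearest to Slc11a2 in pattern were Drc1, Tapt1 and Edrf1, with root mean square differences of 0.02 to 0.03. Drc1, a gene of motile cilia, had 29.0, 49.7, 46.0 and 30.7 TPM. Ependymal markers, which share motile cilia, summed to 601, 1211, 795 and 997 TPM, lowest in library 1 and highest in library 2 as Slc11a2 was, but higher in library 4 than in library 3, where Slc11a2 was the reverse. Their part in the Slc11a2 level was not tested.

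**Figure D4:**
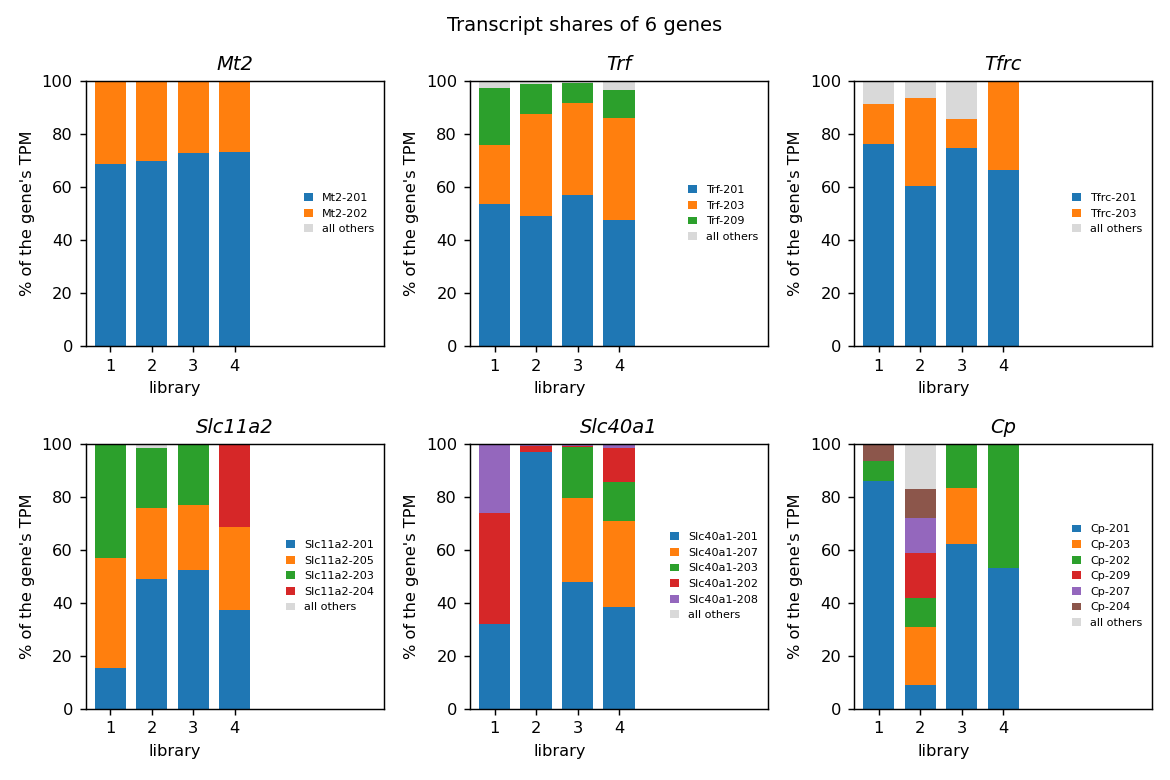
Share of each gene's TPM held by its transcripts in libraries 1 to 4, for the 6 genes with more than 1 transcript at 10% or above; grey marks all others. Mt2 divides alike in every library (68.9 to 73.3% on Mt2-201), whereas Slc11a2, Slc40a1 and Cp change composition, with Slc11a2-201 at 15.3% in library 1 and 52.3% in library 3.

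Export genes were the lowest. Slc40a1 (chromosome 1, 45908068 to 45926523, minus strand) had 0.082, 2.45, 12.8 and 4.29 TPM (4.92 ± 5.56 TPM), from 4, 114, 234 and 118 estimated counts. Without library 1 the mean was 6.53 ± 5.55 TPM and without library 3 it was 2.27 ± 2.11 TPM (n = 3 each). Part of the TPM in libraries 3 and 4 came from the fragments Slc40a1-207 and Slc40a1-203, which held 31.7 and 19.3% in library 3 on 5.27 and 6.75 estimated counts. Slc40a1-201, the longest coding form, had 0.026, 2.37, 6.14 and 1.65 TPM, again lowest in library 1 and highest in library 3. Microglia, which are known to express ferroportin, had summed markers of 193, 413, 594 and 552 TPM, lowest in library 1 and highest in library 3 as well. Slc40a1 was 0.043% of that sum in library 1 and 0.592 to 2.16% in the others, so it varied more than the markers did. The part of microglial RNA in it was not tested.

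Cp had 1.59, 10.6, 3.25 and 1.86 TPM (4.33 ± 4.25 TPM), from 98.3, 407, 133 and 116 estimated counts. Library 2 stood above the others, and without it the mean was 2.24 ± 0.89 TPM (n = 3). The form of highest mean level, Cp-201, was not high in library 2: it had 1.37, 0.94, 2.02 and 0.99 TPM, which was 8.89% of Cp in library 2 and 53.1 to 86.0% elsewhere. In library 2 the rest was spread over the coding forms Cp-203 (22.0%), Cp-202 (10.9%) and Cp-204 (10.7%) and over forms with a retained intron such as Cp-209 (17.1%) and Cp-207 (13.1%). Choroid plexus, a tissue close to the ventricular wall that makes ceruloplasmin, had summed markers of 11.96, 27.5, 23.0 and 28.7 TPM, with 5, 6, 5 and 3 of 6 genes above 0. Folr1 and Otx2 carried that sum, and Ttr, the defining marker, had 1.09, 0.52, 0.34 and 0 TPM. The part of choroid plexus RNA in the Cp level was not tested. Slc40a1 was higher than Cp in libraries 3 and 4 and lower in libraries 1 and 2, so neither export gene was consistently above the other. In library 4 the form Slc40a1-201 alone had 1.65 TPM, against 1.86 TPM for all forms of Cp. The fragments Slc40a1-207 and Slc40a1-203 added 1.39 and 0.62 TPM there on 2.89 and 2.59 estimated counts. Slc40a1 lay below Slc11a2 in all 4 libraries, at 0.071- to 0.578-fold by TPM + 1. The value of 0.071 was that of library 1, where Slc40a1 had 0.082 TPM and Slc11a2 14.3 TPM. There the added 1 largely set the ratio.

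Other genes of iron, heme, zinc and copper were taken from 9 lists of 111 genes that leave out the 10 above. Each was tested for a mean level above or below 1 TPM, a fixed level that short transcripts can reach on a few reads. Of 104 with a count in any library, 81 were above 1 TPM, 11 below and 12 neither (limma on log2(TPM + 1), two-sided, Benjamini-Hochberg adjusted p under 0.05 over all 19914 genes, n = 4); 7 more had no count. Over all genes tested 62.8% were above and 23.2% below, beside 77.9% and 10.6% of these 104. That background was not limited to protein-coding genes, so the shares are not of like sets. With protein-coding transcripts only, 11847 of 16679 genes were above and 2773 below. Of the listed genes 80 of 102 were then above and 10 below. The count below 1 TPM fell to 6 without library 4, to 7 without library 2 and to 2 with edgeR's quasi-likelihood test. Of the low genes named in the following, Hamp2, Hjv, Tmprss6, Flvcr2 and Atp7b did not pass with edgeR (adjusted p = 0.38, 0.13, 0.073, 0.27 and 0.24). Hamp2, Flvcr2 and Atp7b did not pass either when TPM was rescaled to nuclear protein-coding genes (limma, adjusted p = 0.11, 0.24 and 0.080). With protein-coding transcripts only, log2 differences from 1 TPM were lower for Mcoln1 (4.23 instead of 4.92), Slc30a9 (5.77 instead of 6.48) and Commd1 (5.39 instead of 6.00), which stayed above it.

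**Figure D5:**
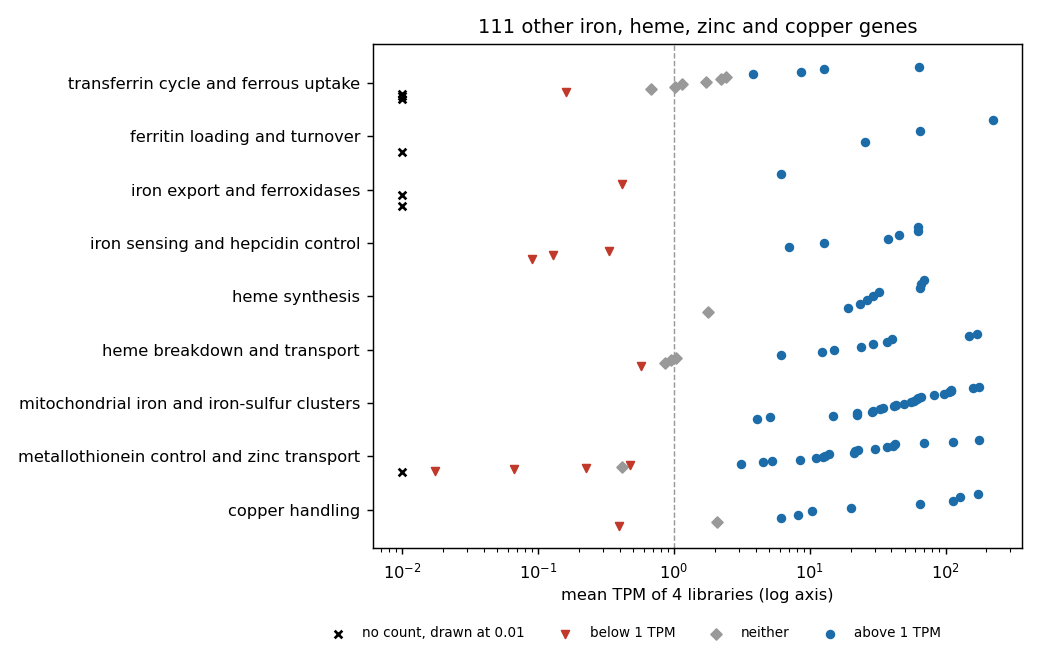
Mean TPM over 4 libraries (log axis) of the 111 genes in 9 lists, each point a gene, marked by its call against 1 TPM (dashed line); genes without a count are drawn at 0.01. All 24 mitochondrial and iron-sulfur genes lie right of the line, while the transferrin cycle list is spread on both sides of it.

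In the transferrin cycle and ferrous uptake list 4 of 14 genes were above 1 TPM, 1 was below, 6 were neither and 3 had no count. The endosomal channel gene Mcoln1 led it at 63.7 ± 25.2 TPM, followed by the ferrireductase Steap3 at 12.6 ± 3.84 TPM and the metal transporter Slc39a14 at 8.60 ± 0.80 TPM (SD, n = 4). The iron-binding secreted proteins lactoferrin (Ltf) and lipocalin 2 (Lcn2) had no count. Ferritin's helpers were present: the iron chaperones Pcbp1 (223 ± 25.3 TPM) and Pcbp2 (25.4 ± 0.98 TPM) and Ncoa4, the receptor that takes ferritin to autophagy (65.1 ± 8.36 TPM), were above 1 TPM, and mitochondrial ferritin (Ftmt) had no count.

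Of the other export genes, the ferroxidase Heph was above 1 TPM at 6.09 ± 1.04 TPM, with values of 5.12 to 7.08 TPM in the 4 libraries. Its relative Hephl1 and the hormone hepcidin (Hamp), which makes cells degrade ferroportin, had no count. Hamp2 was below 1 TPM at 0.41 ± 0.66 TPM (adjusted p = 0.044 by limma), a call lost without library 1, 2 or 4 (adjusted p = 0.14, 0.11 and 0.14). Of 9 sensing and hepcidin control genes 6 were above and 3 below. Aco1, whose product doubles as an iron regulatory protein, had 45.6 ± 5.08 TPM, Fbxl5, part of the ligase that marks the partner protein, from Ireb2, for degradation when iron is plentiful, had 62.4 ± 11.5 TPM, and Bmp6, an inducer of hepcidin in liver, had 62.6 ± 12.8 TPM. The liver genes Hjv, named Hfe2 in the annotation (0.13 ± 0.26 TPM), and Tmprss6 (0.09 ± 0.17 TPM) were below.

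Heme synthesis genes were above 1 TPM in 8 of 9 cases, led by Urod (68.9 ± 9.22 TPM), Alas1, the first enzyme of the pathway in most cells (66.3 ± 18.3 TPM), and Alad (64.9 ± 10.6 TPM). Much of the Alas1 level lay on transcripts not annotated as protein-coding: without them its log2 difference from 1 TPM was 2.82 instead of 5.03. The lowest were Cpox at 19.1 ± 5.26 TPM and the red blood cell form Alas2, which passed in neither direction at 1.77 ± 0.97 TPM. Alas2 had 0.85, 2.14, 1.13 and 2.96 TPM, lowest in library 1 and highest in library 4 as the haemoglobin genes were. Of 13 genes of heme breakdown and transport 9 were above, 1 below and 3 neither. The heme transporter Slc48a1 (172 ± 29.0 TPM), the heme-binding Pgrmc1 (148 ± 15.1 TPM) and the biliverdin reductase Blvrb (40.6 ± 5.07 TPM) led. The plasma heme carrier Hpx stood at 0.85 ± 0.87 TPM, and Flvcr2 was below 1 TPM at 0.57 ± 0.12 TPM (adjusted p = 0.018 by limma), a call lost without library 4 (adjusted p = 0.081), with a pseudocount of 0.1 (0.15) and among genes of at least 5 counts (0.10).

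All 24 genes of mitochondrial iron and iron-sulfur clusters were above 1 TPM. The chaperone Hspa9 (176 ± 17.4 TPM), the assembly scaffold Iscu (160 ± 9.58 TPM) and Cisd1, an iron-sulfur protein of the outer membrane (110 ± 12.95 TPM), led. The lowest was the mitochondrial iron importer Slc25a37 at 4.10 ± 2.61 TPM, whose call (adjusted p = 0.025 by limma) was lost without library 2 or 3 (adjusted p = 0.085 and 0.088), with protein-coding transcripts only (0.080) and with the most abundant transcript only (0.14).

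Among 24 genes of metallothionein control and zinc transport 18 were above 1 TPM, 4 below and 1 neither, and Mt4 had no count. The mitochondrial zinc exporter Slc30a9 led at 178 ± 19.96 TPM, followed by Slc39a7, which releases zinc from the endoplasmic reticulum (114 ± 15.9 TPM), and Slc39a12, a zinc importer known from brain (69.4 ± 11.6 TPM). Slc39a5 was lowest of those with a count, at 0.018 ± 0.035 TPM. Copper genes were above in 8 of 10 cases, led by the copper chaperones Cox17 (175 ± 22.8 TPM) and Atox1 (114 ± 10.2 TPM) and by Commd1, a factor of copper export (128 ± 11.8 TPM). Sco2 passed in neither direction at 2.07 ± 0.999 TPM (after rescaling to nuclear protein-coding genes it was above, limma, adjusted p = 0.033), and Atp7b, the copper pump of liver, was below at 0.40 ± 0.39 TPM (adjusted p = 0.019 by limma). That call was lost without library 2 or 4 (adjusted p = 0.078 and 0.070).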

How the data were processed

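The labels' protocols name a PicoPure extraction, amplified low-input cDNA and paired reads of 100 bases. Per the submitters' processing notes the tools were kallisto and sleuth, on mm10, and the sources used here give no versions. Each deposited file holds an estimated count per transcript, which kallisto assigns by estimate, and the authors' TPM, scaled by effective length to a fixed total, so a rise of some genes lowers all others.

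TPM was summed per gene by transcript ID, without version, with GENCODE M21. Of 99567 transcripts 98294 matched, and the other 1273 held 2.59 to 4.56% of TPM. limma 3.58.1 (R 4.3.3) tested the mean of log2(TPM + 1) against 1 TPM with a mean-variance trend over 19914 genes with a count in any library. The labels name no molecular identifiers, so precision read from counts covers counting error only. edgeR 4.0.16 (estimated counts rounded to whole numbers) and DESeq2 1.42.0 size factors served as alternatives, beside another pseudocount (0.1), a minimum of 5 counts, rescaling over nuclear protein-coding genes, CPM, protein-coding or most abundant transcripts only, added pseudogenes and each library left out. edgeR's test was computed from its fitted deviances, since the design has 1 coefficient.

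The 10 genes, the gene lists and the rules were chosen with earlier results of these data known. All 10 genes are named; of each other list the 3 highest and 2 lowest genes by mean TPM, or all of 5 or fewer; of each of the 10 genes the 2 highest transcripts and any with 10% of its TPM in a library; and the 3 nearest patterns for genes of at least 10 TPM with an SD of at least 0.3. Values by library of Alas2, Heph and single oligodendrocyte markers were added after they were seen. Some genes of the lists are not reported by name here. Libraries are numbered in accession order. Figures were drawn with matplotlib 3.10.9 under Python 3.11.15.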

Additional observations from a re-analysis of the deposited data

Results flagged for a closer look

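The sets of 4 values examined were 28: the levels of the 10 genes, 8 ratios between them and 10 summed marker lists. In 5 of them 1 library was far from the other 3 by Dixon's criterion. For independent sets chance gives about 1 in 20. These sets share genes and a fixed TPM total, so the 5 cannot be weighed against that rate. Mt3 was lowest in library 3, at 1754 TPM, against 1906 to 1935 TPM in the others. The log2 ratio of Fth1 over Ftl1 was lowest in library 3 as well, at 0.88, against 1.14 to 1.17. In library 1 the log2 ratio of Mt1 over Mt2 was 1.64, against 1.70 to 1.71, and that of Trf over Tfrc was 0.37, against 2.80 to 3.29. Summed mature neuron markers were highest in library 1, at 1312 TPM, against 1066 to 1108 TPM.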

How the results depend on the processing

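No paired analysis was possible because the labels give 1 group and no pairing. The number of genes above 1 TPM stayed within 1.5 times the reported one under the 12 alternatives run, with 79 to 83 genes of the other metal lists. The number below was less stable. For these lists it was 6 with at least 5 counts, 6 when TPM was rescaled to nuclear protein-coding genes, 2 under edgeR's test and 6 to 11 with a library left out, instead of 11. Over all genes it was 949 with at least 5 counts, 1851 with edgeR and 2773 with protein-coding transcripts only, instead of 4628. Fewer genes were tested under the count minimum and the transcript filter. Rescaling divides by a smaller total and so raises every gene against the same 1 TPM. For the other alternatives the cause was not tested. Among 37 named genes of these lists, calls were lost under some alternative for Hamp2, Hjv, Tmprss6, Flvcr2, Atp7b and Slc25a37, and gained for Sco2 on rescaling; none changed direction. Rescaling raised genes of at least 10 TPM by a median of 0.43 on the log2 scale, and the 10 genes by similar amounts. With CPM, which is not corrected for length, mean log2 ratios were 2.001 for Mt1 over Mt2, -1.26 for Mt2 over Mt3, 0.93 for Fth1 over Ftl1 and 5.08 for Fth1 over Tfrc. With the most abundant transcript only they were 2.16, -1.46 and 7.82 for Mt1 over Mt2, Mt2 over Mt3 and Fth1 over Tfrc. The reported values were 1.69, -1.03, 1.09 and 7.30. No ratio with 1 sign in all libraries changed sign under the alternatives run. Depth limits Slc40a1 (4 estimated counts in library 1) and the short transcripts.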
